A study of Mus musculus with 9 samples.

Results

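The genes described here are 10 transcription factor genes known from naive and memory T cells: Tcf7, Lef1, Id3, Bcl6, Foxo1, Klf2, Bach2, Satb1, Zeb1 and Foxp1. They were taken by name from 55471 gene identifiers in the count files, and 10 of 10 were found and had enough counts to be tested. They were measured in 9 RNA sequencing libraries of effector CD8+ T cells, and the comparison is between control cells and cells meant to be unable to use ketone bodies.

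After infection, a CD8+ T cell that meets its antigen divides and either becomes a short-lived effector or keeps the capacity to form memory. TCF-1 (from Tcf7), LEF-1, FOXO1, KLF2, BACH2, SATB1, ZEB1 and FOXP1 are abundant in resting cells and hold back the effector programme or keep the genes of quiescence, homing and survival active, while ID3 and BCL6 mark cells that go on to memory. FOXO1 is controlled mostly after translation, since AKT phosphorylation moves it out of the nucleus, so its RNA level does not report its activity.

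The donor T cells were OT-I, meaning that their transgenic receptor recognises an ovalbumin peptide. The 4 control libraries are labelled Control (Bdh1-WT;shCtrl): Bdh1 wild type, with an shRNA (a hairpin RNA that silences by RNA interference) aimed at firefly luciferase. The 5 DKO libraries are labelled DKO (Bdh1-KO;shOxct1): Bdh1 knockout with an shRNA against Oxct1. Bdh1 and Oxct1 encode 2 enzymes of ketone body use. Oxct1 was knocked down and not deleted, and both arms went through culture and transduction. Naive cells were activated in culture with antibodies to CD3ε and CD28 and with IL2, transduced, sorted on the Ametrine reporter and given to naive C57BL/6 (CD45.1) mice. The mice were infected with LmOVA (Listeria monocytogenes expressing ovalbumin), and the donor cells were sorted from the spleen on day 7. The labels give no age or sex of the mice, no driver of the Bdh1 deletion, and no statement that replicates came from separate donors or hosts, so p-values measure the spread between these libraries, which may be technical.

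Libraries held 45205993 to 59853080 counts in genes. Oxct1 was at 63.2 ± 5.73 CPM (counts scaled by library size; SD, n = 4) in control and 5.16 ± 0.370 CPM in DKO (SD, n = 5), and Bdh1 at 30.5 ± 4.17 and 10.6 ± 1.24 CPM, in the direction of the labels. Control replicate 1 stood apart on the first principal component of log2 CPM (-79.1, against -7.25 to 23.5 in the other 8 libraries) and control replicate 3 on the second (-70.2, against -5.59 to 20.2). The CD8 markers were present. Cd8a hardly differed (719 against 716 CPM, control first), and Lck had the higher mean in DKO (2751 against 2808 CPM). Cd8b1 (2247 against 1702 CPM), Cd3g (989 against 803 CPM) and Cd3d (687 against 548 CPM) had lower means in DKO. So did Cd3e (1195 against 1064 CPM) and Cd2 (899 against 772 CPM). Cd4 was at 0.172 and 0.344 CPM. Of 6 summed marker lists, 2 differed between the groups (exact permutation test, two-sided, p = 0.0159 each, the smallest it can give; adjusted p 0.0476). The lists were chosen with earlier results of these data known, so these p-values describe the libraries and are not independent evidence. The cell cycle list, 21 genes all above 1 CPM, summed to 1068 to 1251 CPM in the control libraries and 1404 to 2149 CPM in the DKO libraries. The myeloid list, with 8 of 12 genes above 1 CPM, summed to 166 to 201 CPM in control and 116 to 127 CPM in DKO. Ctss, Itgam and Cd68 held most of it and were lower in DKO (81.2 against 51.3 CPM, 58.9 against 38.1 CPM and 29.2 against 16.8 CPM), while Lyz2 (2.43 and 5.85 CPM) and Csf1r (1.84 and 2.37 CPM) had the higher mean in DKO. Its neutrophil markers were near 0, with S100a8 at 0 and 0.122 CPM and Ly6g at 0.101 and 0.0362 CPM. The B cell list (3 of 11 genes above 1 CPM, adjusted p 0.514) was almost all Ighm; Pax5 had 0 counts in every library. Summed CD4 T cell markers were at 35.3 and 41.8 CPM (adjusted p 0.0952), summed markers of red cells and platelets at 19.3 and 20.8 CPM (0.841), and summed CD8 T cell markers at 9487 and 8412 CPM (0.0952). Whether the cell cycle or myeloid difference has a part in any result below was not tested.

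Per length of exon sequence, as TPM (counts per base of exon, scaled to the same total in each library), the means of the 10 genes in control ran from 3.32 to 3040. Klf2 was the highest, at 3040 ± 269 TPM in control (mean and SD, n = 4) against 3374 ± 154 TPM in DKO (mean and SD, n = 5). Tcf7 followed at 290.0 ± 50.0 and 360.0 ± 54.7 TPM, then Lef1 at 65.5 ± 11.4 and 67.5 ± 6.36 TPM. Foxo1 was at 53.2 ± 6.68 and 64.3 ± 4.26 TPM, Foxp1 at 45.9 ± 7.47 and 46.3 ± 3.14 TPM, and Satb1 at 36.5 ± 6.05 and 38.0 ± 4.76 TPM. The lower 4 were Id3 (12.7 ± 2.86 and 20.4 ± 2.19 TPM), Zeb1 (6.62 ± 1.42 and 6.49 ± 1.18 TPM), Bach2 (5.13 ± 1.20 and 5.25 ± 0.866 TPM) and Bcl6 (3.32 ± 0.698 and 3.34 ± 0.855 TPM). The median of all tested genes in control was 12.5 TPM. Counted without regard to strand, the order of the means was the same in both groups. In control, the ranges of neighbours in this order did not overlap between Klf2 and Tcf7, Tcf7 and Lef1, Satb1 and Id3, Id3 and Zeb1, or Bach2 and Bcl6. They overlapped between Lef1 and Foxo1, Foxo1 and Foxp1, Foxp1 and Satb1, and Zeb1 and Bach2. Compared within each library, Foxo1 was above Foxp1, Foxp1 above Satb1 and Zeb1 above Bach2 in 9 of 9 libraries. Lef1 was above Foxo1 in 7 of 9, so the order of Lef1 and Foxo1 varied between libraries. These orders rest on counting without regard to strand, which leaves out reads shared by genes that overlap on opposite strands. With both strands counted and summed, Bach2 averaged 20.3 and 20.6 CPM (control, then DKO) and Zeb1 19.6 and 18.7 CPM. Lef1 averaged 197 and 202 CPM and Foxo1 182 and 225 CPM. Per length of exon (9940, 10266, 8788 and 8665 bases), Bach2 was then above Zeb1 in both groups. Lef1 was above Foxo1 in control and below it in DKO.

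The 10 genes lie on 8 chromosomes of GRCm38 (GENCODE M21), and all are annotated as protein-coding. Tcf7 (ENSMUSG00000000782) lies on the minus strand of chromosome 11 at 52252371 to 52283014, and Id3 (ENSMUSG00000007872) on the plus strand of chromosome 4 at 136143497 to 136145755. Bach2 (ENSMUSG00000040270) is on the same chromosome at 32238804 to 32586108. Lef1 (ENSMUSG00000027985; 131110471 to 131224356) and Foxo1 (ENSMUSG00000044167; 52268336 to 52353221) are both on chromosome 3. Foxp1 (ENSMUSG00000030067) is on chromosome 6 at 98925338 to 99522721, Klf2 (ENSMUSG00000055148) on chromosome 8 at 72319033 to 72321656, and Satb1 (ENSMUSG00000023927) on chromosome 17 at 51736187 to 51833290. Zeb1 (ENSMUSG00000024238) is on chromosome 18 at 5591860 to 5775467. Bcl6 (ENSMUSG00000022508) is on chromosome 16 at 23965052 to 23988852 on the minus strand. Bach2, Lef1, Foxo1, Klf2 and Zeb1 are on the plus strand, and Foxp1 and Satb1 on the minus strand.

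Between DKO and control, 0 of the 10 genes were past the threshold (Benjamini-Hochberg adjusted p under 0.05 in edgeR's quasi-likelihood test), against 2.83% of all 14918 tested genes (1.32% higher and 1.51% lower in DKO). By unadjusted p under 0.05 there were 2, Id3 and Foxo1, where 16% of tested genes reached that level. The DESeq2 Wald test and limma-voom each called 1, Id3. Of the 10, 7 had a higher fitted mean in DKO and 3 (Bcl6, Zeb1 and Foxp1) a lower one; 48.6% of all tested genes were higher. The median log2 fold change of the 10 was 0.02, and that of all tested genes -0.01. In 9 of the 10, the 95% interval of the fold change lay within 1.5-fold in either direction, the exception being Id3. With counts simulated over 14624 genes for DKO against control, the test recovered 67.5% of genes changed by 1 on the log2 scale; smaller changes, such as those of the 10 genes, were not simulated.

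**Figure D1:**
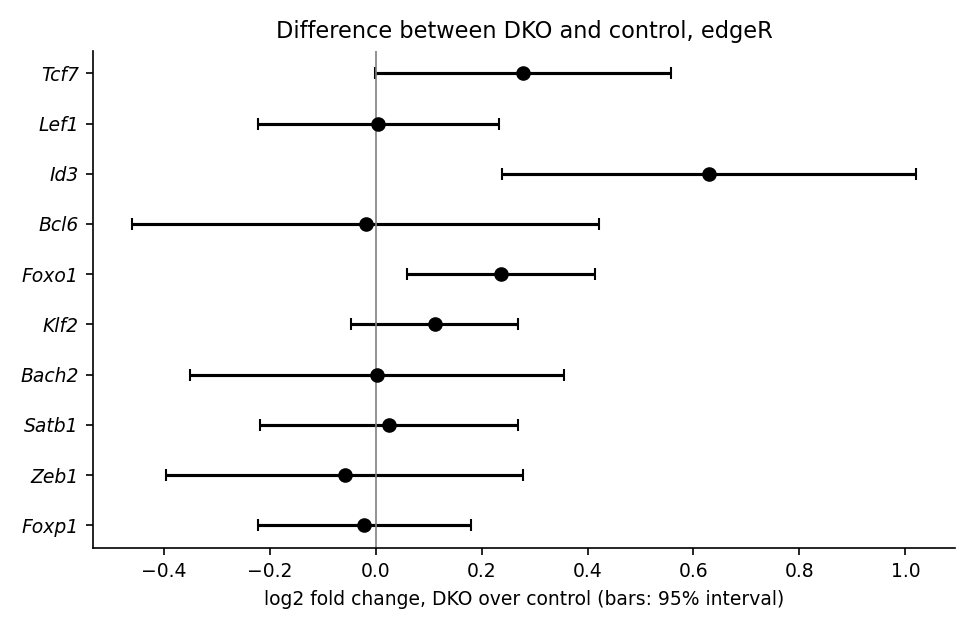
Fitted log2 fold change of DKO over control (x axis) for each of the 10 genes (y axis), with bars for the 95% interval from edgeR. The interval of Id3 runs from 0.24 to 1.02 and that of Foxo1 from 0.06 to 0.41, and the other 8 intervals include 0.

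Id3 had the largest difference of the 10. ID3 lacks a DNA-binding domain and works by holding E proteins (TCF3, TCF12 and TCF4) off DNA. Id3 was at 9.53, 6.03, 5.22 and 8.27 CPM in control replicates 1 to 4 and at 13.1, 10.4, 10.2, 11.7 and 10.8 CPM in DKO replicates 1 to 5. The highest control library was below the lowest DKO library, a separation with DKO above that 4.62% of all tested genes showed (8.71% in either direction). The mean was 7.26 ± 1.99 CPM in control (mean and SD, n = 4) against 11.2 ± 1.17 CPM in DKO (mean and SD, n = 5), a fold change of 1.55 (95% interval 1.18 to 2.03). Its log2 fold change was 0.63 (SE 0.18) with an unadjusted p of 0.00446 and an adjusted p of 0.0963, short of the threshold in edgeR. It passed with the DESeq2 Wald test (adjusted p 0.0111), limma-voom (0.00972), 1 surrogate variable as covariate (0.0102) and without control replicate 1 (0.0211), the library with the highest Id3 among the controls. Without control replicates 1 and 3 together, a setting added after the data were seen, the adjusted p was 0.0670 in edgeR. Bulk RNA cannot tell a larger share of cells with Id3 RNA from more Id3 RNA per cell. The library with the fewest held 236 counts of Id3.

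Short DNA words that factors of these families bind were searched in the RefSeq promoter windows of GRCm38.p6, in the 250 bases before each annotated start. Windows of 9 of the 10 genes were searched, 20 windows in all, and some windows of 1 gene overlap. No window of Zeb1 was used, which does not mean that Zeb1 lacks a promoter window. All windows here means the 32851 that were searched. Both strands were read, and a match describes letters only. The BCL6 word TTCNNNGAA was in 3 of the 20 windows and in 7.02% of all 32851 windows, the TCF/LEF word TCAAAG in 4 and in 13.8%, the EGR word GCGNGGGCG in 4 and in 4.7%, the ZEB word CACCTG in 2 and in 17.2%, and the short KLF word CACCC in 15 and in 52%. The FOXO word GTAAACA (3.17% of all windows) and the BACH and AP-1 word TGANTCA (6.75%) were in 0 of the 20. Words can overlap one another, and the KLF word is short enough to be common.

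The window of Id3, the gene whose groups did not overlap, held only the KLF word of those searched, at 2 places on chromosome 4, plus strand. Both lie in an exon of Id3 in GENCODE M21, which starts the gene farther upstream than RefSeq. They are shown with the reverse complement of the word in capitals, 5′ to 3′.
Id3, chr4:136143728-136143752: gggcgggcggGGGTGgacccttggc
Id3, chr4:136143761-136143785: ttgaataaggGGGTGtgtcctagag

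**Figure D2:**
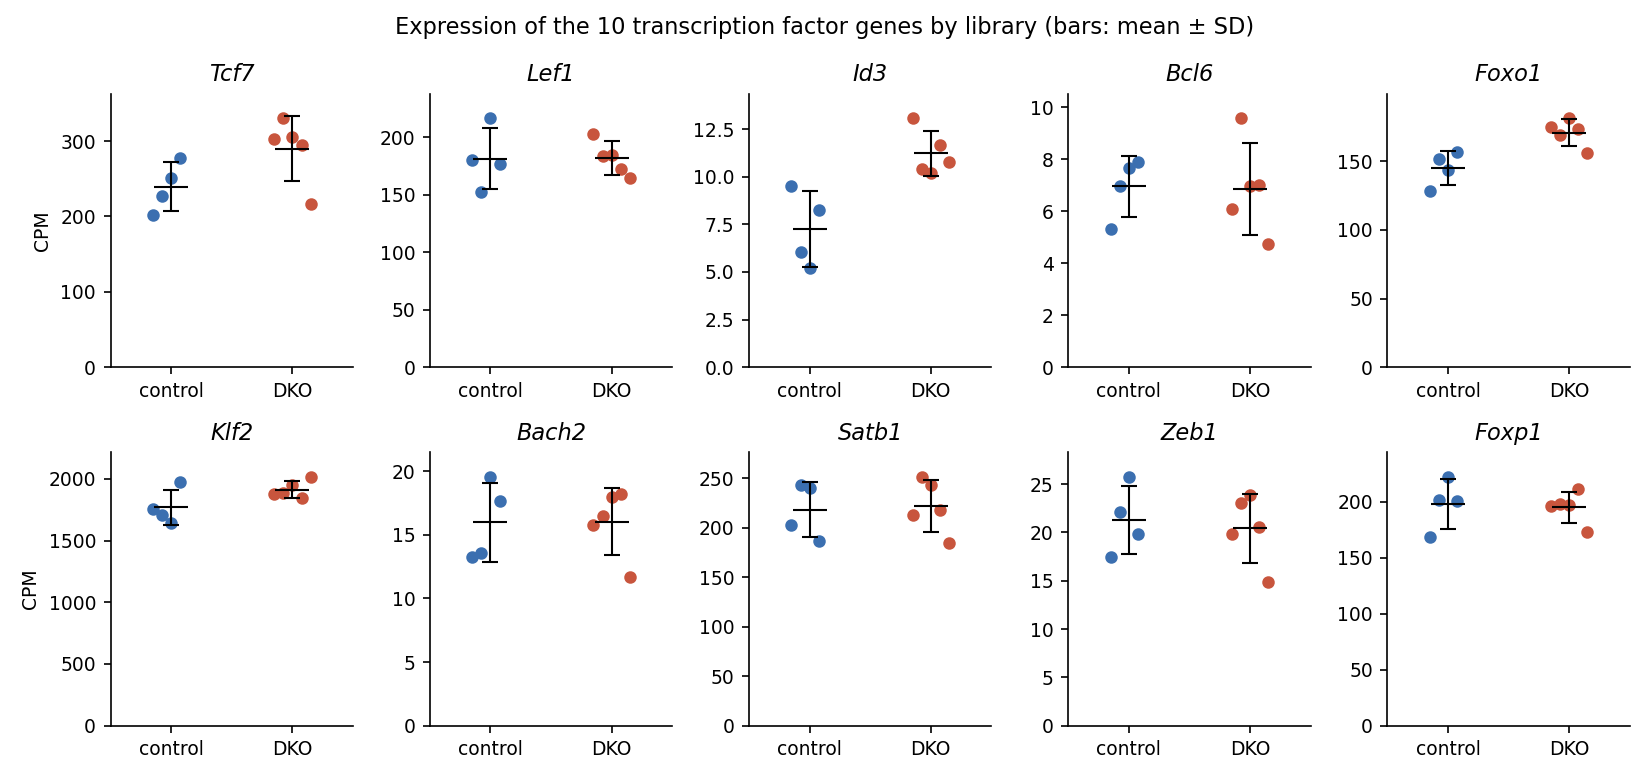
CPM (y axis, from 0) of each of the 10 genes in the 4 control and 5 DKO libraries, 1 point per library in replicate order from left to right, with the mean and SD as bars. The groups separate for Id3 (at most 9.53 CPM in control, at least 10.2 CPM in DKO) and overlap for the other 9.

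TCF-1 and LEF-1 are HMG-box proteins that bind the same DNA words and share cofactors of the Groucho family. Tcf7 was at 201, 227, 250.5 and 277 CPM in control and at 302, 330.1, 305, 295 and 217 CPM in DKO. DKO replicates 1 to 4 lay above all controls, and DKO replicate 5 lay below 3 of the 4. The mean was 239 ± 32.5 CPM in control (mean and SD, n = 4) against 290.0 ± 42.9 CPM in DKO (mean and SD, n = 5), a fold change of 1.21 (95% interval 1.00 to 1.47, adjusted p 0.314 in edgeR). Without DKO replicate 5 the log2 fold change was 0.36 in place of 0.28, still short of the threshold (adjusted p 0.135). Tcf7 makes long and short protein isoforms that differ in the part that binds beta-catenin, and gene counts do not separate them. Lef1 was at 180.0, 152, 216 and 177 CPM in control and at 203, 184, 185, 173 and 165 CPM in DKO. The DKO libraries lay inside the range of the controls, and the fold change was 1.00 (95% interval 0.857 to 1.18). The sum of both strand columns was 1.20 times the unstranded count of Lef1, which overlaps the antisense gene Gm43352, so some of its reads are left out of unstranded counting.

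The forkhead factor FOXO1 activates genes of homing and survival, KLF2 among them, and KLF2 in turn activates S1pr1. Foxo1 was at 129, 152, 143 and 157 CPM in control and at 175, 169, 181, 173 and 156 CPM in DKO. Control replicate 4 lay just above DKO replicate 5, the only overlap between the groups in CPM. In TPM the groups did not overlap for Foxo1 (43.4 to 57.8 in control, 58.2 to 69.6 in DKO). The fold change was 1.18 (95% interval 1.04 to 1.33, unadjusted p 0.0135, adjusted p 0.169 in edgeR). The sum of both strand columns was 1.41 times its unstranded count, as the antisense gene Gm20402 covers part of Foxo1. With the strand columns summed, Foxo1 averaged 182 and 225 CPM of that larger total in the 2 groups, and its log2 fold change was 0.30 in place of 0.24 (adjusted p 0.120). Klf2 was at 1759, 1711, 1643 and 1972 CPM in control and at 1874, 1884, 1949, 1842 and 2016 CPM in DKO. Control replicates 1 to 3 lay below every DKO library, and control replicate 4 lay within the DKO range. Its fold change was 1.08 (95% interval 0.969 to 1.20), the narrowest interval of the 10 on the log2 scale. FOXP1, a forkhead repressor that keeps naive cells quiescent, had a fold change of 0.985 for its gene (95% interval 0.857 to 1.13), with Foxp1 between 168 and 222 CPM in control and between 173 and 211 CPM in DKO.

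BCL6, BACH2 and ZEB1 repress transcription. BCL6 is a zinc finger protein that opposes Blimp-1, BACH2 occupies sites that AP-1 factors would otherwise use, and ZEB1 binds E-box words. Bcl6 was at 5.30, 6.97, 7.68 and 7.90 CPM in control and at 6.07, 9.57, 6.96, 7.02 and 4.72 CPM in DKO. Both the highest and the lowest library were DKO, and the fold change was 0.987 (95% interval 0.727 to 1.34). Bach2 was at 13.3, 13.5, 19.6 and 17.6 CPM in control and at 15.8, 16.4, 18.0, 18.2 and 11.7 CPM in DKO, with a fold change of 1.00 (95% interval 0.784 to 1.28). The sum of both strand columns was 1.40 times the unstranded count of Bach2, which overlaps the antisense gene Bach2os. Zeb1 was at 17.4, 22.1, 25.7 and 19.8 CPM in control and at 19.8, 23.1, 23.9, 20.5 and 14.8 CPM in DKO, a fold change of 0.960 (95% interval 0.760 to 1.21). SATB1 folds chromatin and recruits modifying enzymes, and Satb1 was between 187 and 243 CPM in control and between 185 and 252 CPM in DKO, a fold change of 1.02 (95% interval 0.859 to 1.20). For these 4 genes the groups overlapped.

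The windows before 2 RefSeq starts of Bcl6 held the BCL6 word, on chromosome 16, minus strand. A match of letters does not show which protein binds there. BCL6 is known to repress its own gene, and whether it does so at these places was not tested. The matches are shown with the word in capitals, 5′ to 3′. The first lies before the main start and outside the gene in GENCODE M21, the others before a second RefSeq start, in an intron.
Bcl6, chr16:23988952-23988980: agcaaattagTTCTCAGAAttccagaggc
Bcl6, chr16:23981353-23981381: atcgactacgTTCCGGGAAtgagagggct
Bcl6, chr16:23981387-23981415: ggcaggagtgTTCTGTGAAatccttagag
Bcl6, chr16:23981433-23981461: aggccgcggcTTCCTGGAAagttacttct
Bcl6 RNA was the lowest of the 10 per length in both groups, at 3.32 ± 0.698 TPM in control (SD, n = 4) and 3.34 ± 0.855 TPM in DKO (SD, n = 5).

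In some libraries most of the 10 genes lay on the same side of the group mean. In DKO replicate 5, 9 of the 10 were below the DKO mean of log2 CPM (median deviation over the 10, -0.21), and the exception was Klf2, which was at its highest there. That library held the lowest value of all 9 libraries for Bcl6, Bach2, Satb1 and Zeb1. In control replicate 1, 8 of 10 were below the control mean (median deviation -0.20), and it held the lowest Tcf7, Foxo1 and Foxp1. Its share of unmapped reads was also the largest, at 16.7%, against 10.3% in the library with the smallest. Control replicate 3 held the highest Lef1, Bach2, Zeb1 and Foxp1 and the lowest Id3 and Klf2. Within control the coefficient of variation ran from 8.02% (Klf2) to 27.4% (Id3), and within DKO from 3.62% (Klf2) to 25.8% (Bcl6), where the median of all tested genes was 20.9% in control and 11.7% in DKO. It was larger in control than in DKO for 7 of the 10 and for 75.7% of tested genes.

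**Figure D3:**
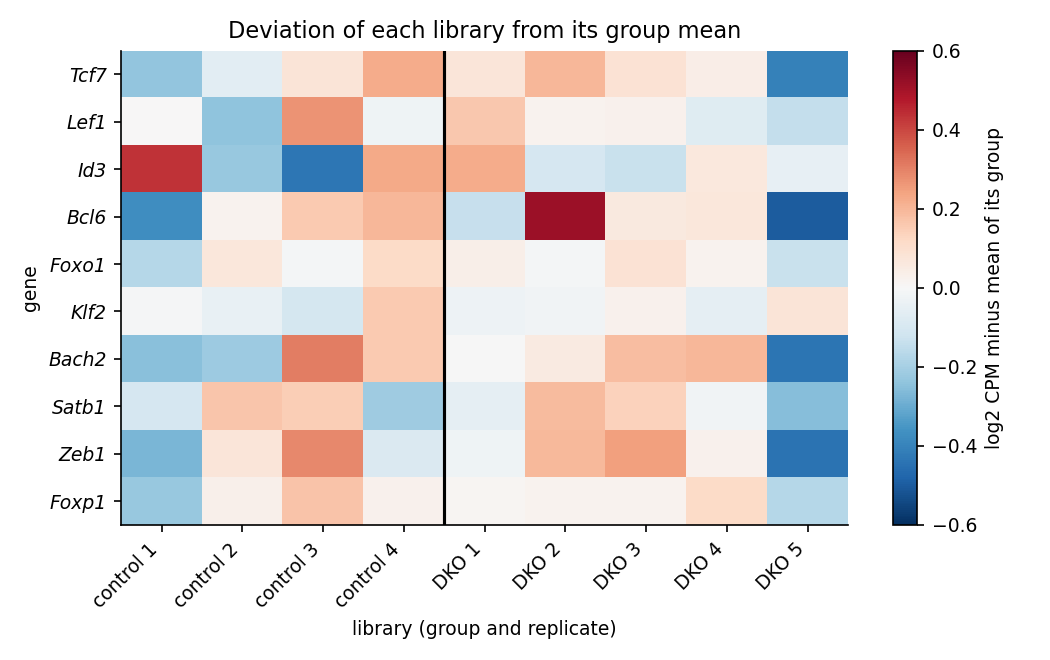
Log2 CPM minus the mean of its own group (colour, red above and blue below) for the 10 genes (rows) in the 9 libraries (columns, with a line between control and DKO). DKO replicate 5 is below its group for 9 of 10 genes and control replicate 1 for 8 of 10.

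Of close relatives of the 10 factors, 14 of 19 had enough counts to be tested, 1 passed and was higher in DKO, and 8 were higher and 6 lower without regard to the test (median log2 fold change 0.10). The gene that passed was Klf10, which encodes a zinc finger repressor induced by TGF-beta. Klf10 was at 81.6, 109, 126.1 and 112 CPM in control and rose to 170.5, 151, 151, 162 and 192 CPM in DKO. No control library reached the DKO range, and the fold change was 1.54 (log2 fold change 0.63, adjusted p 0.0238 in edgeR). Klf10 lost the threshold without control replicates 2 or 4 or any of DKO replicates 1, 4 and 5 (adjusted p up to 0.0685). The next by p were Klf6 (266 ± 25.3 and 316 ± 13.3 CPM, adjusted p 0.139) and Klf13 (299 ± 37.1 and 356 ± 20.7 CPM, adjusted p 0.196). Per length, the KLF genes Klf6 (216 TPM over all libraries), Klf3 (176 TPM), Klf13 (141.5 TPM) and Klf10 (108 TPM) were each well below Klf2. TCF-1's other relatives Tcf7l1 and Tcf7l2 were at 0.489 and 0.186 TPM, so Tcf7 and Lef1 made up nearly all RNA of that family. Foxo3 and Foxo4 (3.07 and 1.95 TPM) were far below Foxo1, and Bach1 (2.36 TPM) was below Bach2.

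None of the 18 partner and cofactor genes passed (edgeR; 1 had an unadjusted p under 0.05), 14 were higher and 4 lower, and their median log2 fold change was 0.13. Tle1, a Groucho corepressor used by TCF-1 and LEF-1, came closest at 42.5 ± 3.29 CPM in control against 53.2 ± 6.82 CPM in DKO (adjusted p 0.159). Tcf3, the E protein gene most abundant per length in these cells and a target of ID3, was at 334.5 ± 37.5 and 373 ± 32.2 CPM (adjusted p 0.467). The genes that control FOXO1 gave 0 of 14 past the threshold, 2 at an unadjusted p under 0.05, 10 higher and 4 lower, and a median of 0.15. Of all tested genes, 16% had an unadjusted p under 0.05. Of the 14 genes that control FOXO1, Pik3ip1, an inhibitor of PI3K, was at 117 ± 5.65 and 137 ± 11.1 CPM (adjusted p 0.196 in edgeR). Akt2 was at 149 ± 23.2 and 183 ± 13.3 CPM (adjusted p 0.215) and Mtor at 24.9 ± 8.99 and 33.1 ± 3.42 CPM (adjusted p 0.416). Akt2 did not overlap between the groups. Mtor was at 11.8 CPM in control replicate 1, and without that library its log2 fold change was 0.17 in place of 0.41. Counts by direction that do not rest on the test are descriptions, as genes are not independent of each other.

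Genes of naive and memory cells, many of them targets of these factors, gave 0 of 22 past the threshold, 5 at an unadjusted p under 0.05 (16% of all tested genes), and 11 higher against 11 lower (median -0.01). Cd27, a costimulatory receptor kept on memory precursors, was at 268 ± 21.9 CPM in control against 313 ± 20.04 CPM in DKO (adjusted p 0.186). Cd27 passed without control replicate 1 (adjusted p 0.0497), with limma-voom (0.0192) and with 1 surrogate variable (0.0314). Il6st, the shared receptor chain of the IL6 family, was at 18.0 ± 7.00 and 28.2 ± 3.27 CPM (adjusted p 0.222 in edgeR). Control replicate 1 held 8.28 CPM of Il6st, against 17.7 to 24.2 CPM in the other controls. Without that library the log2 fold change of Il6st was 0.40 in place of 0.65. Txnip, which restrains glucose uptake, was at 618 ± 75.4 and 770.0 ± 112 CPM (adjusted p 0.225). Of 3 known targets of FOXO1 or KLF2, none passed the threshold in edgeR: S1pr1 had a fold change of 1.104, Il7r of 0.870 and Ccr7 of 1.37, with unadjusted p of 0.0927, 0.328 and 0.0519.

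Effector transcription factors gave 1 of 12 past the threshold, lower in DKO, 6 at an unadjusted p under 0.05 (16% of all tested genes), and 7 higher against 5 lower (median 0.06). Eomes, a T-box factor needed for memory cell maintenance as well as effector function, was at 59.6, 66.0, 78.0 and 84.4 CPM in control and fell to 46.9, 59.0, 46.5, 52.9 and 52.0 CPM in DKO. Each control library was above each DKO library, if narrowly, with a fold change of 0.715 (log2 fold change -0.48, adjusted p 0.0497 in edgeR). Of the 9 fits without 1 library, it passed in only 1, that without control replicate 1, and the adjusted p reached 0.142 (without DKO replicate 1). It also missed the threshold with DESeq2 size factors (0.0512) and with no low-count filter (0.0607). Irf4 (15.96 ± 3.41 and 23.0 ± 0.791 CPM, adjusted p 0.0752) and Runx3 (194 ± 53.4 and 277 ± 9.68 CPM, adjusted p 0.147) were next, and for both the DKO libraries lay above all controls. Irf4 passed without control replicate 1 (adjusted p 0.0294), without control replicate 3 (0.0473), without both (0.0288), and with the DESeq2 Wald test (0.00873), limma-voom (0.0115) and 1 surrogate variable (0.00458). Runx3 passed without control replicate 1 (0.00627), without control replicates 1 and 3 (0.0200), and with limma-voom (0.0193) and 1 surrogate variable (0.00409). Control replicate 1 held 114 CPM of Runx3, against 216 to 223 CPM in the other controls. The sum of both strand columns was 1.15 times the unstranded count of Eomes. In the cell cycle list, by contrast, 13 of 21 genes rose past the threshold and 0 fell, with a median of 1.05: Cdc20, Mcm5, Cdk1, Aurkb, Bub1, Plk1, Rrm2, Birc5, Top2a, Ube2c, Ccna2, Ccnb2 and Mki67, by 0.77 to 2.14 on the log2 scale. Without control replicate 3, 5 of these 13 passed (Aurkb, Bub1, Cdc20, Cdk1 and Mcm5), and without control replicates 1 and 3 together 3 passed (Bub1, Cdc20 and Mcm5), while without control replicate 1 alone 13 did. Without 1 library the calls over all 6 lists together, 15 with all libraries, ranged from 2 (without control replicate 4) to 19 (without control replicate 1).

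**Figure D4:**
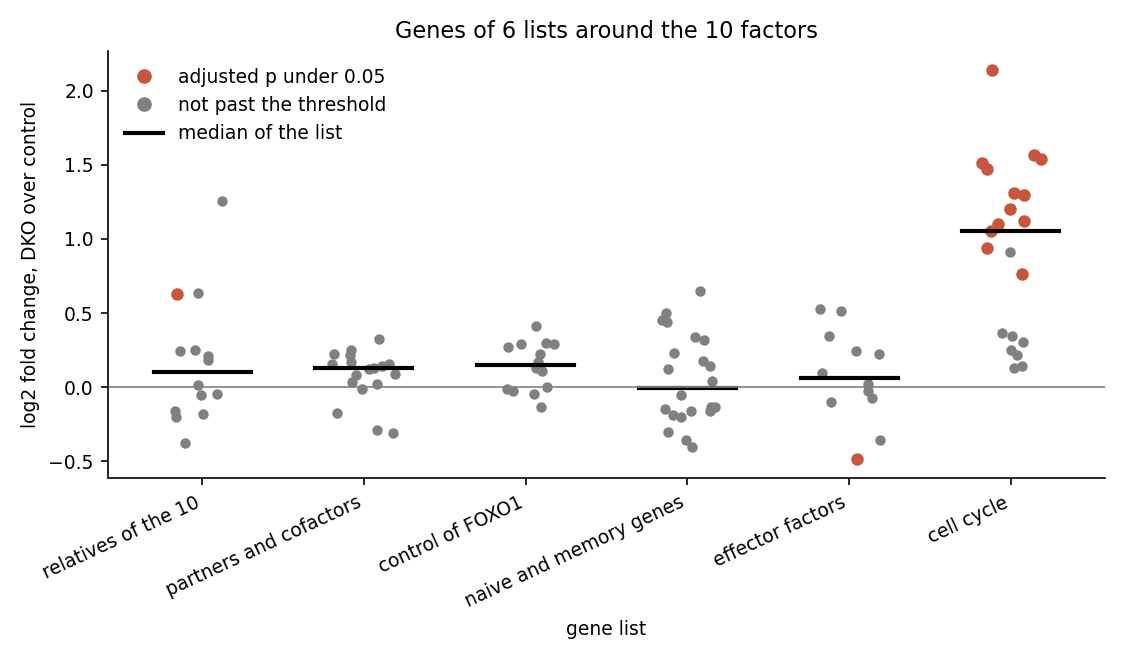
Log2 fold change of DKO over control (y axis) for each tested gene of 6 lists (x axis, points spread sideways at random for legibility), with the list median as a black line and genes past the threshold in red. The 13 cell cycle genes past the threshold lie at 0.77 or more, while the other 5 lists hold Klf10 (0.63) and Eomes (-0.48) past it.

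Several of the 10 factors have a counterpart that is high in effector cells, which gives 4 opposed pairs, and the log2 ratio of their TPM was taken within each library. Id3 over Id2 was -7.96, -8.17, -8.32 and -7.80 in control and -6.76, -7.33, -7.12, -7.15 and -6.87 in DKO. All DKO libraries lay above all controls, by a mean difference of 1.01 on the log2 scale. With each library left out in turn the mean difference was 0.93 to 1.101. Leaving out a library could not undo the separation, so those fits do not test it. Id2 RNA per length was 267 times that of Id3 in control and 132 times in DKO. Both genes entered into this: Id2 was at 2593 ± 435 CPM in control (mean and SD, n = 4) against 2029 ± 243 CPM in DKO (mean and SD, n = 5), with an adjusted p of 0.159 in edgeR, so neither gene passed by itself. Tcf7 over Tbx21, the gene of T-bet, was -2.29 ± 0.0940 in control (mean and SD, n = 4) against -2.24 ± 0.349 in DKO (mean and SD, n = 5), and DKO replicate 5 was the lowest at -2.84. Without that library, singled out after its value was seen, the mean difference was 0.20 in place of 0.05. The groups then came apart only narrowly, with control replicate 3 at -2.21 and DKO replicate 1 at -2.20. Bcl6 over Prdm1, the gene of Blimp-1, was -4.16 ± 0.359 and -4.52 ± 0.403, and Zeb1 over Zeb2 was -3.11 ± 0.257 and -3.25 ± 0.351, both with overlap. For both ratios DKO replicate 5 was the lowest library (-5.10 and -3.83) and control replicate 1 the highest (-3.67 and -2.73). The effector counterpart was the higher of each pair in every library. These ratios are descriptions without a test.

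**Figure D5:**
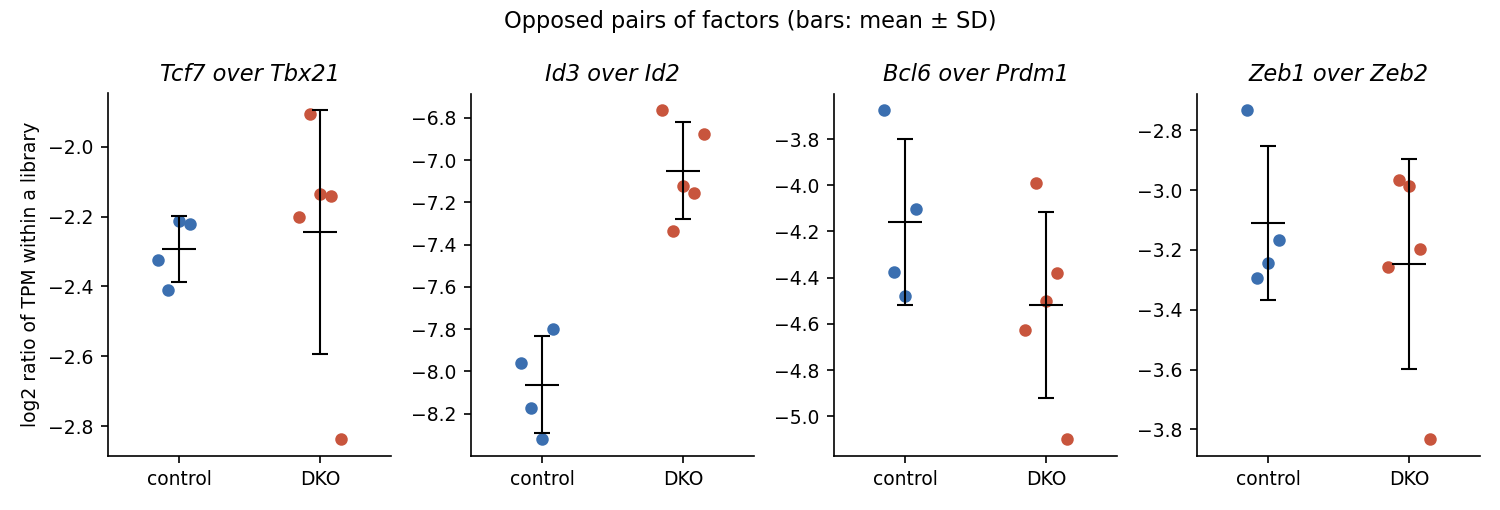
Log2 ratio of TPM within each library (y axis, not from 0) for 4 pairs of factors in control and DKO, 1 point per library with the mean and SD as bars. Id3 over Id2 lies at -7.80 or below in control and at -7.33 or above in DKO, and the other 3 pairs overlap.

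The genes whose log2 CPM over the 9 libraries, centred on its mean, was nearest to that of a given factor were listed for Tcf7, Id3 and Foxo1, among 11537 other protein-coding genes. For Tcf7 they were Tox, Txnip and Fam169b, at a root mean square difference of 0.07, 0.10 and 0.10 (log2), where the median gene was at 0.32. For Id3 they were Cd200, Kifc5b and Jund (0.15, 0.15 and 0.18, median gene 0.47), and for Foxo1 Arrb2, Anxa11 and Atg16l1 (0.05, 0.05 and 0.06, median gene 0.26). None of these 9 genes passed the threshold between the groups in edgeR.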

How the data were processed

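The authors deposited 1 file of whole-number read counts per gene for each of 9 libraries, without regard to strand and for each strand, as STAR writes them. STAR 2.7.8a, Trim Galore 0.6.0 and build mm10 are named in the submitters' processing notes. The counting annotation is not given in the sources used here. Per the labels' protocols, libraries were made with Takara and Illumina Nextera Flex kits from RNA of Qiagen columns. The 2 strand columns were nearly equal (the first held 49.9 to 50.1%), and the unstranded column was taken, which drops reads shared by overlapping genes of opposite strand. Reads that name no gene were left out: unmapped 10.3 to 16.7%, multimapping 5.80 to 6.79%, no feature 4.01 to 5.20% and ambiguous 4.97 to 5.31%.

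Identifiers were matched to GENCODE M21 (GRCm38) without the version (55230 of 55471). The test was edgeR's (version 4.0.16, R 4.3.3) robust quasi-likelihood F-test (Benjamini-Hochberg; TMM factors 0.987 to 1.035) after filterByExpr (minimum count 10, minimum total 15), adjusted over 14918 genes, with the threshold at 0.05. CPM, log2 CPM (prior count 2) and TPM (exon union length, M21) were computed here from the deposited counts. Alternatives used DESeq2 1.42.0, limma 3.58.1 and sva 3.50.0; the rest used Python 3.11.15, scipy 1.17.1 and matplotlib 3.10.9. No 2 libraries of a group were duplicates (chi-square per degree of freedom at least 9.70). On simulated data over 14624 genes for DKO against control, 8.00% of the calls of edgeR's test were false. In the same data, 20.2% of the calls of DESeq2 and 7.43% of those of limma-voom were false.

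The 10 genes and the lists were chosen with earlier results of these data known, and among lists only the summed CPM of the 6 marker lists was tested (exact permutation over libraries). Named genes were the 10, both targeted genes, list genes past the threshold (or the 3 of smallest p where fewer than 3 passed), the 4 opposed pairs and the nearest genes by root mean square difference. Nearest genes were taken for Tcf7 and for Id3 and Foxo1, the 2 of smallest p. A few genes that the rule or the lists hold are not reported here. Other genes are named for their role or level and were chosen after their values were seen.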

Additional observations from a re-analysis of the deposited data

How the results depend on the processing

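Apart from the replicate block, 17 alternatives were run; Id3 stayed short of the threshold in 13 of these, and the other 9 genes in all 17. The number of the 10 past the threshold was 1 (Id3) under the DESeq2 Wald test, limma-voom with quality weights and 1 surrogate variable, and 0 to 1 when leaving out each library in turn. The count over all genes, 422 in the report, was 1059 with DESeq2, 996 with limma-voom, 1248 with 1 surrogate variable and 179 to 749 without 1 library. For the list genes (15 in the report), it was 24 with 1 surrogate variable, 2 to 19 without 1 library and 8 without control replicates 1 and 3 together, a setting added after seeing the data. The cause was not tested. Id3, Tcf7, Foxo1 and Klf2 were higher in DKO under every one of the 17 alternatives (log2 fold change 0.50 to 0.79, 0.19 to 0.36, 0.14 to 0.30 and 0.04 to 0.17). The other 6 genes changed sign under at least 2 of them and were never past the threshold. Summed marker lists without 1 library had an adjusted p of at least 0.0571, because fewer relabellings are possible.

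Groups share replicate numbers in the labels, but same-numbered libraries did not deviate together (correlations of -0.0469, -0.00917, 0.0124 and -0.117 over genes), and no control library correlated best with the DKO library of its number. With the replicate number as a block, 67 genes, 1 list gene and 0 of the 10 passed, and Id3 had a log2 fold change of 0.67 (adjusted p 0.139 in edgeR).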

Other observations

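In 20 groups of libraries (10 genes, control and DKO), no highest or lowest library was farther from the others than Dixon's 95% limit allows.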
